A study of Mus musculus with 4 samples.

Results

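The 7 genes described here were the cytokine interferon gamma (Ifng), both chains of its receptor (Ifngr1, Ifngr2), the kinases bound to those chains (Jak1, Jak2), a transcription factor the pathway induces (Irf1) and an inhibitor it induces (Socs1). They were chosen by name, with earlier results of these data known, and all 7 were among the 19059 genes measured. Levels were followed through T cells, NK cells, ILC1 and myeloid cells of MC38 tumors, a mouse colon carcinoma line, grown in C57BL/6 mice whose CTLA-4 is the human protein. Live CD45+ cells were sorted from tumors pooled over 11 mice per group and measured in 1 library per group by a probe-based single-cell assay. The groups were isotype control, a combination of anti-human CTLA-4 with anti-mouse FcgRII, and both antibodies given singly. Per the labels, mice were treated 3 times from a tumor size of 100 mm3. Isotype control was given at 10 mg/kg. The combination was 10 mg/kg of anti-human CTLA-4 with 20 mg/kg of anti-mouse FcgRII, so the antibody dose differed between these groups. Doses of the single antibodies are not given here. For the single antibodies the sample titles and the treatment field contradict each other, so they are called single antibody A (titled anti-human CTLA-4, treatment field anti-mouse FcgRII) and single antibody B (the reverse). All libraries carry the same batch label, and a group cannot be told apart from its library.

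Interferon gamma is secreted mainly by activated T cells, NK cells and ILC1. It binds IFNGR1, IFNGR2 joins the complex, and JAK1 and JAK2 start the signal inside the cell, which acts on genes through GAS elements. IRF1 then turns on a further set of genes through IRF elements, while SOCS1 binds the kinases and dampens the signal.

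In GRCm38, Ifng lies at chr10:118441046-118445892 on the plus strand, Irf1 at chr11:53770014-53778374 on the plus strand and Socs1 at chr16:10782240-10785536 on the minus strand, all annotated as protein-coding. The RefSeq promoter windows of GRCm38.p6, from 250 bases before the start to 50 after it, were searched on both strands for TTCNNNGAA, a GAS element, and for GAAANNGAAA, an IRF element. All 7 genes had a window, 8 windows in all. The windows of Irf1 and Socs1 are shown because these genes were highest in the combination in every myeloid class; capitals mark the matches.
Irf1, chr11:53769764-53770063, plus strand: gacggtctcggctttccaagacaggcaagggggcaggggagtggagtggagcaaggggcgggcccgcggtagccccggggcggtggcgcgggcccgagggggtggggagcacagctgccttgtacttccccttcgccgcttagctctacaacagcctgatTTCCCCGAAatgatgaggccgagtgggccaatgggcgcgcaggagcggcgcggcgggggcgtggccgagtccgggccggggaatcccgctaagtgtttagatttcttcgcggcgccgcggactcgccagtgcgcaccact
Socs1, chr16:10785487-10785786, minus strand: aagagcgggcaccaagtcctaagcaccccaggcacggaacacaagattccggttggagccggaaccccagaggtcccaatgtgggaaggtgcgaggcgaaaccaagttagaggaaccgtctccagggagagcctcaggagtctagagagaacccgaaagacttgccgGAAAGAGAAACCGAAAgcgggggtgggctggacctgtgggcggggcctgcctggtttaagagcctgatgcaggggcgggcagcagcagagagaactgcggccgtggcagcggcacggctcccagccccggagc
The Irf1 window held TTCCCCGAA, starting 90 bases before the start site. The Socs1 window held GAAAGAGAAA and, overlapping it, GAAACCGAAA. The Ifng window held TTCAGAGAA near its far end, and the windows of Ifngr1, Ifngr2, Jak1, Jak2 and the second start of Irf1 held neither motif. Of all 32851 windows, 8.30% held the GAS element and 3.44% the IRF element.

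The libraries held between 129151823 and 196362818 UMIs, and 26785 cells were kept. A level is the UMIs of a gene summed over a class of cells, per 1000000 UMIs of that class (CPM). Intervals are exact 95% intervals for counting error only. They do not cover differences between mice, tumors or libraries, and with 1 library per group no test was possible. Levels depend on the probes of each gene and were not compared between genes. No 24-base barcode was shared between libraries, although 4461 of the 23366 droplet barcodes occurred in more than 1.

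Many cells in the T cell clusters also carried macrophage RNA. Of T cells, 919 of 1351 in isotype control, 287 of 948 under single antibody A, 431 of 647 under B and 750 of 1216 in the combination had at least 1% of their UMIs on 12 macrophage markers. Their median depth was 30736 UMIs in isotype control and 34920 in the combination, against 4150 and 6016 in the other T cells. All cells were kept, as planned, and values without these cells (called macrophage-low below) stand beside some of the results, not all.

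Ifng was concentrated in CD8 T cells. They held 39.2% of the Ifng UMIs of isotype control, 60.4% under single antibody A, 49.2% under B and 74.2% in the combination. All T cells together held 73.4%, 88.4%, 78.4% and 89.9%, in the same order. T cells assigned to neither CD8 T cells, conventional CD4 T cells nor Tregs numbered 511, 190, 193 and 378. Of these, 264, 90, 77 and 194 held an Ifng UMI, and their UMIs are not in the CD8 shares. NK cells and ILC1 together held 9.61%, 8.50%, 15.4% and 2.76% of the Ifng UMIs. The share in monocytes, macrophages and dendritic cells was 16.7%, 3.00%, 5.74% and 6.998%. A share moves with the number of cells as well as with the level in each: CD8 T cells numbered 303, 459, 205 and 596.

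**Figure D1:**
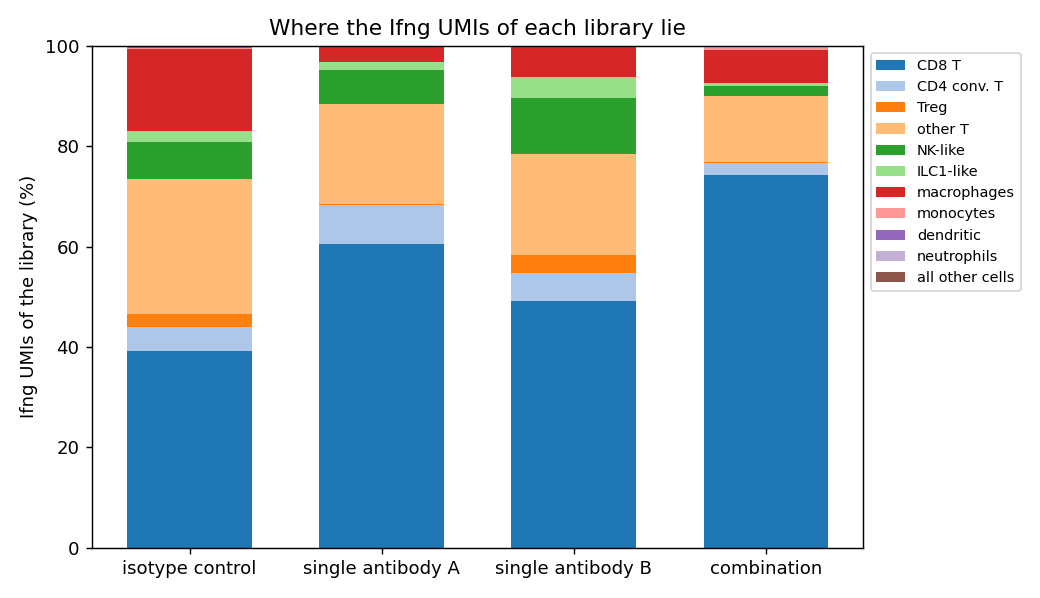
Stacked bars give the percent of each library's Ifng UMIs (y axis, 0 to 100) that lay in each class of cells, for the 4 libraries on the x axis. CD8 T cells held 39.2% in isotype control and 74.2% in the combination.

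In T cells as a whole, Ifng stood at 104.5 CPM in isotype control, 485 CPM under single antibody A, 88.9 CPM under B and 325 CPM in the combination. The combination was 3.10 times isotype control (interval 3.00 to 3.21). Without the 5 T cells highest in Ifng of each library the levels were 79.9, 294, 71.8 and 226 CPM, and the ratio 2.83. With those cells kept, the size of the ratio depended on which cells were called T cells. It was 1.74 in macrophage-low cells and 2.91 without the T cluster whose median cell was at 1% or more on macrophage markers. Leaving out whole clusters high in C1q genes, which mark macrophages, gave 1.10 (interval 0.923 to 1.32), but that rule also took out a cluster led by Cd8a, with Ifng among its top 10 genes and a median of 0.110% on macrophage markers. The 1.10 is therefore the ratio in the one T cluster left, led by Cd4 and Foxp3. In T cells Ifng, Irf1 and Socs1 were at least 1.5-fold higher, as were 3.94% of genes, and none of the 7 was as much lower, as were 3.04%. In macrophage-low T cells Ifng alone was at least 1.5-fold higher, as were 3.97% of genes there. None of the 7 was as much lower, as were 3.26%. Irf1 and Socs1 gave 1.05 (0.982 to 1.12) and 1.29 (1.17 to 1.43) in those cells. CD8 T cells made up a larger share of T cells in the combination, and CD8 T cells alone gave 1.90.

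In CD8 T cells Ifng was 307 CPM in isotype control (295 to 320), 610 CPM under single antibody A (593 to 628), 178 CPM under B (167 to 190.0) and 584 CPM in the combination (573 to 595). In level, single antibody A and the combination were high and close together, at a ratio of 0.957, and single antibody B was lowest. In macrophage-low CD8 T cells the values were 955, 1294, 567 and 1212 CPM. The ratio of combination to isotype control was 1.27 (1.18 to 1.37) there. In isotype control 1 of the 113 macrophage-low CD8 T cells held 33.6% of their Ifng UMIs. Without the top cell of each library the isotype control level was 667 CPM and the ratio 1.44.

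A few cells carried most of these UMIs. In the combination, 1 CD8 T cell held 1264 Ifng UMIs, 11.9% of the class, and the top 10% of cells held 82.6%. In isotype control the top 10% held 71.9%, so intervals that treat UMIs as independent are too narrow. Leaving out the 5 highest cells of each library gave a ratio of 2.10. For shares at an equal depth, each cell was drawn down to 3248 UMIs and shallower cells were left out. This left out 22 CD8 T cells of isotype control and 34 of the combination. The share of CD8 T cells with an Ifng UMI was then 34.3% in isotype control, 50.5% under single antibody A, 34.8% under B and 40.6% for the combination. The ratio of combination to isotype control, 1.18 (0.978 to 1.43), did not separate the shares at this depth. The ratio of combination to single antibody A was 0.803 (0.699 to 0.921). Undrawn, the shares were 63.0% in isotype control and 73.5% in the combination. In macrophage-low CD8 T cells the drawn-down ratio of combination to isotype control, 1.10 (0.871 to 1.40), did not separate the shares either. Nor did the ratio of combination to single antibody A in those cells, 0.927 (0.793 to 1.08). The shares there were 50.4% in isotype control, 60.1% under single antibody A, 61.3% under B and 55.7% in the combination. The value of B rested on 58 cells. In monocytes, which should lack Ifng, the drawn-down share was 1.06% or less in every library.

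Conventional CD4 T cells had Ifng at 63.4, 338, 46.2 and 74.3 CPM in the same order. The value of single antibody A rested on 1 cell, which held 68.6% of its UMIs, and without the top cell of each library it fell to 106.7 CPM. The ratio of combination to isotype control was 1.17 with all cells, 0.843 without the top cells and 0.554 in macrophage-low cells, so its direction was not settled. Tregs had 5 Ifng UMIs in 24 cells of the combination and were not compared.

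NK cells and ILC1 went the other way. Ifng was 257 CPM in isotype control, 282 CPM under single antibody A, 161 CPM under B and 110.2 CPM in the combination, a ratio of 0.429 (0.376 to 0.489). None of the 7 genes was at least 1.5-fold higher there, against 3.10% of genes, and Ifng and Ifngr2 were as much lower, against 4.27%. In the NK-like cluster, led by Gzma and Eomes, the ratio was 0.634 (0.546 to 0.735). In the ILC1-like cluster, led by granzymes of the Gzmc group, Ifng was 108.8, 99.2, 70.7 and 36.2 CPM and the ratio 0.333 (0.252 to 0.438). The merged ratio also moves with the mix of these clusters. NK-like cells numbered 231 in isotype control and 234 in the combination, and ILC1-like cells 99 and 186. Median depth was 3549 UMIs in NK-like and 10565 in ILC1-like cells. The drawn-down share of ILC1-like cells with an Ifng UMI was 26.8% in isotype control and 8.22% for the combination. In NK-like cells, 118 of isotype control and 98 of the combination were shallower than 3248 UMIs and left out. The share in the remaining 113 and 136 was 53.5% and 41.5%, a ratio of 0.775 (0.595 to 1.01) that did not separate them at this depth. The ratio of levels rose to 0.761 when no cells were left out as doublets and to 0.725 with finer clusters, and stayed under 1 in all alternatives run.

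**Figure D2:**
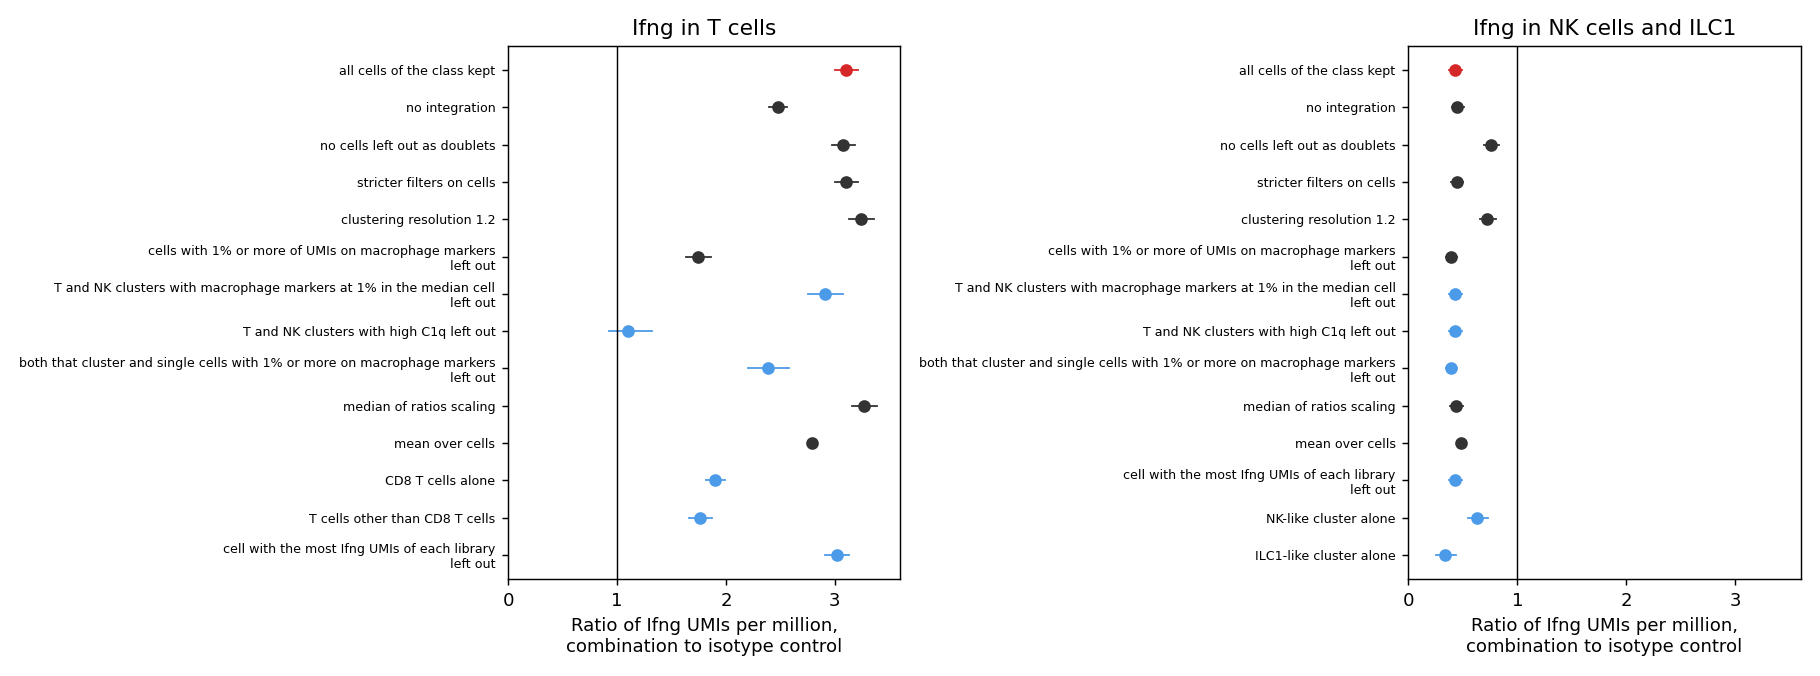
Each point is the ratio of Ifng CPM, combination to isotype control (x axis), under one definition of the cells or scaling (y axis), with bars for counting intervals where computed. Red is the main value, black the other settings and blue settings added later; T cells range from 1.10 to 3.27 and NK cells and ILC1 from 0.333 to 0.761.

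Ifng in the myeloid classes was low and uneven. Monocytes, macrophages and dendritic cells together had 9.43, 2.57, 1.15 and 8.28 CPM. Cells with a UMI of the lymphocyte genes Cd3d, Cd3e or Ncr1 held 95.4% of these Ifng UMIs in isotype control and 90.1% in the combination, and 1 macrophage of isotype control held 34.1% of the macrophage total. Neutrophils had 0, 1, 1 and 36 Ifng UMIs, the last in 16 of 470 cells. All libraries together held 726 neutrophils, so the other values rested on few cells. Against a floor of 3 UMIs in isotype control, the combination was at least 2.87-fold higher. Neutrophils were not split by lymphocyte UMIs.

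Ifngr1 was lower in the myeloid cells of the combination. Ifngr1, the ligand-binding chain, was 426, 339, 330.1 and 277 CPM in monocytes, macrophages and dendritic cells, and the combination was 0.650 times isotype control (0.640 to 0.659). It was lower in 14 of 16 myeloid clusters by intervals under 1, and higher in 1, the Fscn1 and Ccl22 dendritic cells, at 2.25. In neutrophils the ratio was 0.590. In NK cells and ILC1 it was 1.19. Ifngr2, the signal-transducing chain, was 287, 271, 283 and 249 CPM in the merged myeloid class, a ratio of 0.870. In NK cells and ILC1 together its ratio was 0.582 (0.443 to 0.764). It was 0.364 without integration and 0.691 with no cells left out as doublets, where it was no longer 1.5-fold lower, and without cells carrying macrophage RNA it had too few UMIs to be tested. In NK-like cells Ifngr2 was between 4.59 and 98.5 CPM, and it moved with macrophage marker RNA there, which was lowest with single antibody A and highest with single antibody B; the part of that RNA in the values was not tested.

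Jak1 was level in myeloid cells, at 182, 180.3, 176 and 183 CPM, and its ratio was 1.007 (0.987 to 1.03). Jak2 was 151, 147, 105.8 and 182 CPM there, a ratio of 1.21 (1.18 to 1.23). Its level was far higher in dendritic cells, at 699, 705, 686 and 922 CPM, than in macrophages, at 121, 117, 88.1 and 153 CPM. The Jak2 ratio was above 1 by its interval in 12 of 16 clusters and below 1 in 1. It was lowest, at 0.861, in macrophages led by Mmp12 and Nos2. In neutrophils Jak2 was 195, 372, 333 and 463 CPM, a ratio of 2.37 (1.94 to 2.93), with all 3 antibody libraries above isotype control.

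Irf1 and Socs1 were highest in the combination throughout the myeloid cells. Irf1 was 381 CPM in isotype control, 452 CPM under single antibody A, 278 CPM under B and 697 CPM in the combination. The combination was 1.83 times isotype control (1.81 to 1.85), 1.54 times single antibody A and 2.51 times single antibody B. Socs1 was 97.1, 132.9, 66.4 and 309 CPM, and its ratios were 3.18 (3.11 to 3.25), 2.32 and 4.64. For both genes the order was the same, single antibody B lowest, then isotype control, single antibody A and the combination.

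By class, Irf1 was 766, 886, 755 and 1235 CPM in monocytes, 336, 416, 255 and 655 CPM in macrophages and 621, 643, 480 and 965 CPM in dendritic cells. Socs1 was 173, 237, 213 and 534 CPM in monocytes, 88.6, 123.5, 58.9 and 292 CPM in macrophages and 122, 215, 148 and 349 CPM in dendritic cells. The combination was highest in each class for both genes. Single antibody B was lowest in each class for Irf1, whereas for Socs1 isotype control was lowest in monocytes and dendritic cells and single antibody B in macrophages. Irf1 and Socs1 were above all 3 other libraries in 16 of 16 clusters. For Irf1 the ratio to isotype control ran from 1.32 in Retnla and Lyve1 macrophages to 2.86 in macrophages led by Hspb1 and Hspa1a, with a median of 1.64. For Socs1 it ran from 1.13, with an interval that held 1, in macrophages led by Adm and Hspa1a. It reached 7.40 in those led by Hspb1 and Hspa1a, and the median was 2.72. Monocytes led by Chil3 had the highest level of both genes over all libraries, 1146 and 467 CPM. The drawn-down share of cells with a Socs1 UMI, at 6922 UMIs per cell, was 26.8% in isotype control and 58.5% in the combination. Shallower cells were left out, 775 of isotype control and 401 of the combination.

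**Figure D3:**
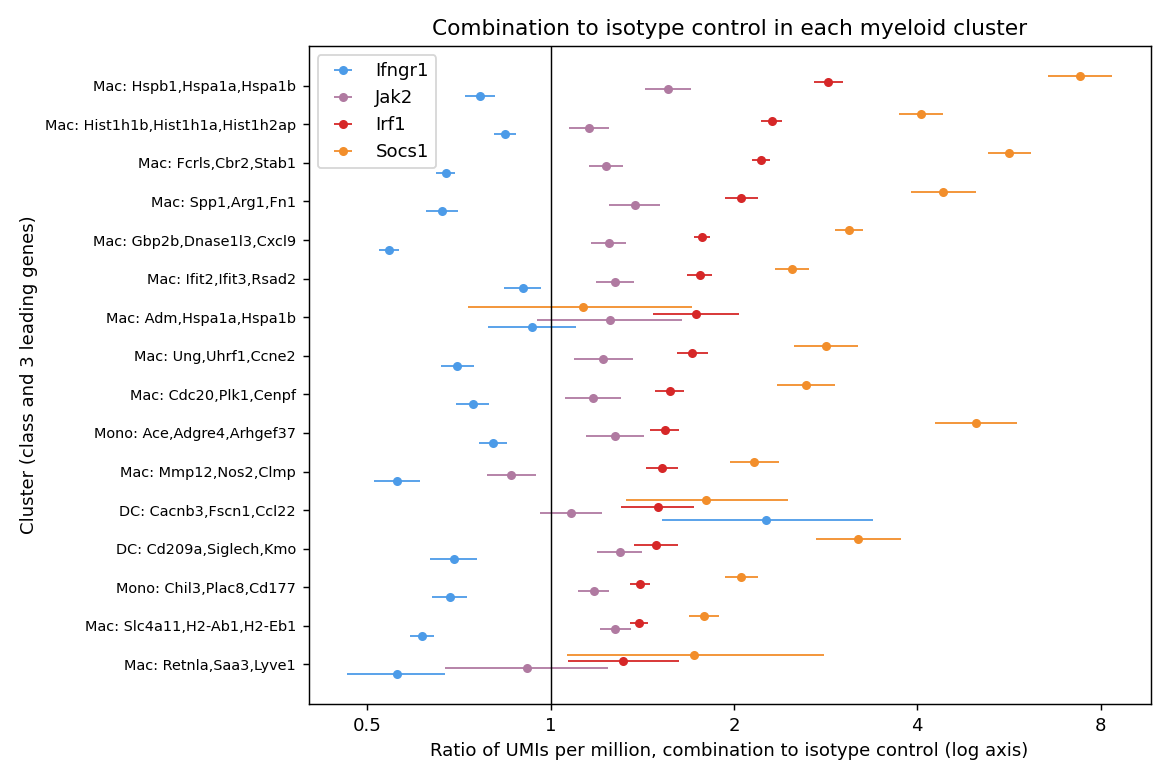
Points give the ratio of CPM, combination to isotype control (log x axis), of Ifngr1, Jak2, Irf1 and Socs1 in each of 16 myeloid clusters named by class and leading genes (y axis), with counting intervals. Irf1 and Socs1 lie above 1 in all 16 clusters, and Ifngr1 below 1 in all but 1.

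Of the 7 genes, Irf1 and Socs1 were at least 1.5-fold above isotype control in the combination, in the merged myeloid class, where 3.94% of the 9638 genes tested were. Ifngr1 was at least 1.5-fold lower, as were 3.69% of genes. It did not reach that fold in macrophages or dendritic cells alone, at 0.674 and 0.690, with median of ratios scaling, at 0.703, with doublets kept, at 0.674, or with finer clusters, at 0.678. The median ratio was 1.007 over the 7 genes and 0.929 over all genes tested. In neutrophils Irf1 was 653, 1494, 1350.1 and 1936 CPM, a ratio of 2.97, and Socs1 was 250.2, 566, 196 and 708 CPM, a ratio of 2.83. Irf1 was thus above isotype control in all 3 antibody libraries. Socs1 in single antibody B was below isotype control, by less than 1.5-fold. Most neutrophils were in the combination, so the values of the other libraries rested on few cells. Between the combination and isotype control, 10.0% of the 4490 genes tested in neutrophils were at least 1.5-fold higher and 13.9% at least 1.5-fold lower.

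In T cells the ratios of Irf1 and Socs1 depended on whether cells with macrophage RNA were kept; the part of that RNA in the values was not tested. In all CD8 T cells Irf1 gave 1.52 and Socs1 2.39. In macrophage-low CD8 T cells Irf1 was 483, 384, 517 and 529 CPM, a ratio of 1.10 (0.985 to 1.22). Socs1 was 155, 150, 145 and 266 CPM there, a ratio of 1.72 (1.44 to 2.07). Macrophage-low CD8 T cells were also drawn down to 3248 UMIs, with shallower cells left out. The share holding a Socs1 UMI was then 38.3% for isotype control. For the combination it was 44.2%, and the ratio, 1.15 (0.852 to 1.56), did not separate the shares at this depth. In NK cells and ILC1, Irf1 was 372, 436, 336 and 355 CPM, a ratio of 0.954 (0.873 to 1.04), and Socs1 gave 1.23 (1.08 to 1.40). Neither direction was settled: without cells carrying macrophage RNA the ratios were 0.835 and 0.959, with no cells left out as doublets 1.45 and 2.01, and with finer clusters 1.43 and 1.99.

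**Figure D4:**
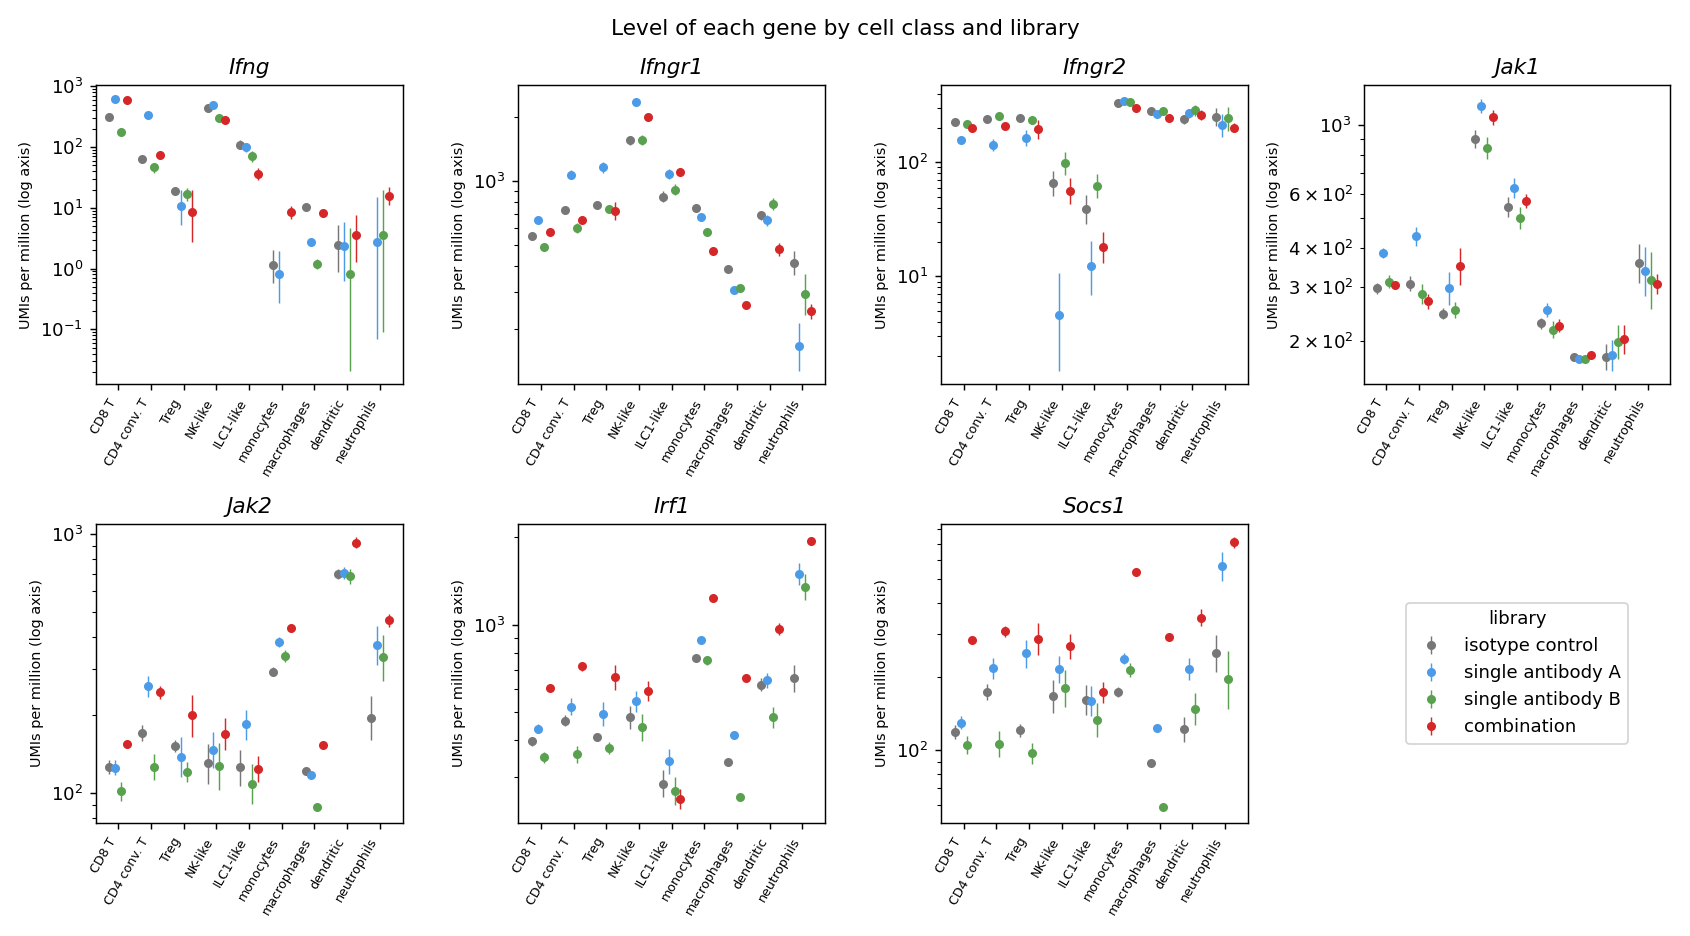
Each panel gives the CPM (log y axis) of one gene in 9 classes of cells (x axis), with a point for each library and bars for exact Poisson intervals; values of 0 are not drawn. The combination is highest for Irf1 and Socs1 in monocytes, macrophages, dendritic cells and neutrophils, and lowest for Ifng in ILC1-like cells.

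Other genes of the pathway were read in the merged myeloid class from 3 lists, chosen with earlier results of these data known. The list of signal and feedback genes is reported here only in part, so its members are not counted. Of those reported, Socs3, a relative of Socs1, had a ratio of 1.40 and Irf8, a myeloid transcription factor, of 1.30, and Irf9 and Pias1 were lowest at 0.912 and 0.891. Of 18 tested genes of the interferon gamma-induced list, 11 were at least 1.5-fold higher, against 3.94% of all genes tested, and 0 as much lower, against 3.69%. The median ratio was 1.69 beside 0.929 for all genes, and 16 were highest in the combination. Nos2, which makes nitric oxide, was 103.6, 244, 79.8 and 917 CPM, a ratio of 8.85. Cd274, which encodes PD-L1, gave 3.50. Fcgr1 and Ciita, the regulator of MHC class II, were lowest at 1.10 and 0.980. Cxcl11 was not analysed here, and Ido1 did not pass the filter.

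**Figure D5:**
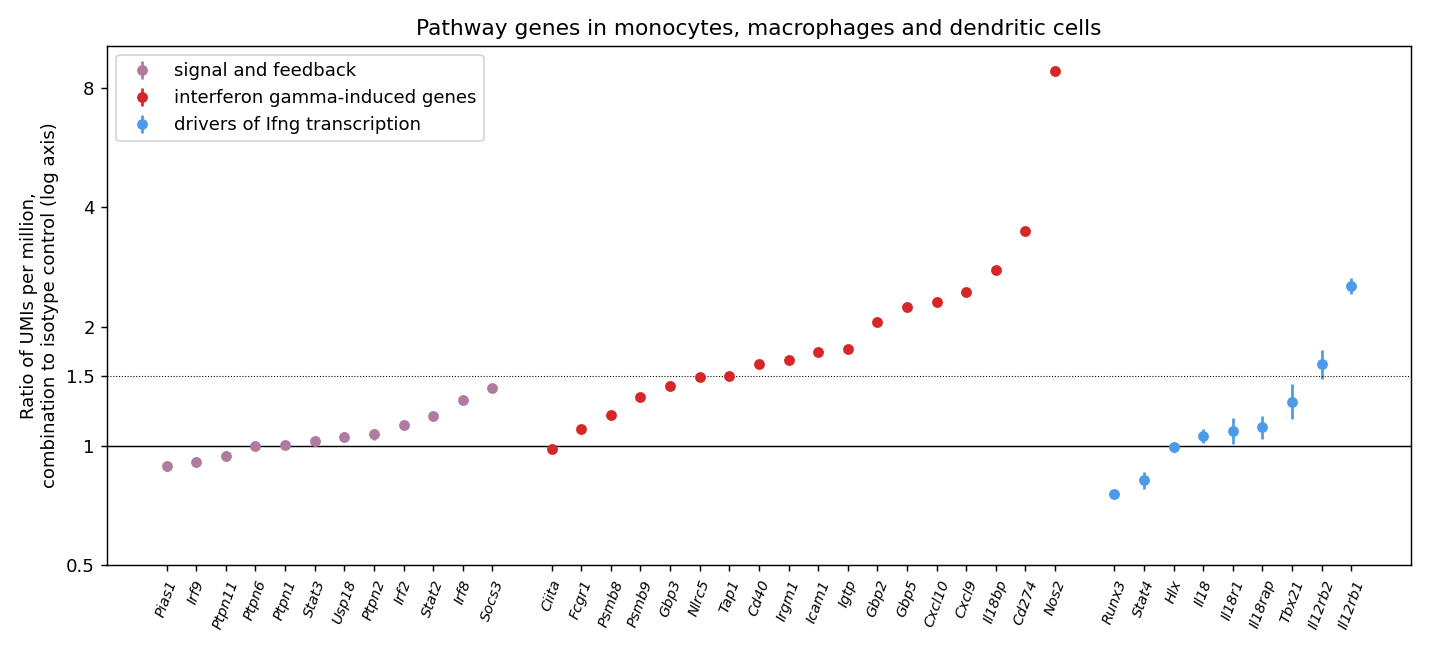
Points give the ratio of CPM, combination to isotype control (log y axis), of the tested and reported genes of 3 lists (x axis) in monocytes, macrophages and dendritic cells, with counting intervals and a dotted line at 1.5. Nos2 stands highest at 8.85, and Runx3 lowest at 0.757.

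Of 10 tested drivers of Ifng transcription in CD8 T cells, 1 was at least 1.5-fold higher, as were 3.96% of genes, and 0 lower, as were 4.50%, with a median ratio of 1.02 beside 0.942 for all genes. Il12rb1 and Il12rb2, the chains of the interleukin 12 receptor, were highest at 1.79 and 1.497, and Il18r1 and Runx3 lowest at 0.844 and 0.791. These values are from all CD8 T cells. Of those, 190 of 303 in isotype control and 358 of 596 in the combination carried macrophage RNA. Il12rb1 and Il12rb2 were also the highest of this list in the merged myeloid class. The part of macrophage RNA in the CD8 values was not tested.

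Over 40 sums of a class in a library, which share libraries and cell types, the gene most like Irf1 among 11490 was Gbp5, a guanylate-binding protein, at a Pearson r of 0.972, followed by Parp14 and Slfn2. Socs1 was most like Parp10, Tapbp and Ifi47, at 0.871 to 0.846, Ifng like Hid1, Baiap3 and Kcnk5, at 0.913 to 0.906, and Ifngr1 like Sec24c, Fryl and Ccndbp1. Among the genes most like Ifngr2 were Alox5ap and Pirb, at 0.981 and 0.980. Jak1 was most like Vps37b, Ugcg and Elk4, and Jak2 like Dapp1, Nfkbie and Orai1. Among the 7 genes themselves the closest pair was Irf1 and Socs1, at 0.827.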

How the data were processed

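The deposited values are UMI counts per gene and cell, made by the authors with Cell Ranger (7.0.0 in the submitters' processing notes, 7.2.0 in the file headers, build mm10) from Chromium Flex libraries, as barcodes called as cells. Per the labels, tumors were pooled over 11 mice and harvested on day 8. The article gives other numbers of mice, another day, other doses for the combination and another tumor size at the start of treatment.

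Cells with at least 500 genes and at most 10% mitochondrial UMIs were kept. Scrublet in scanpy 1.11.5 called 7 doublets in all, and the top 5% by score were therefore dropped per library. Normalization, integration (3000 features), 30 components and clustering at resolution 0.8 were run in R 4.3.3 (Seurat 5.3.0, sctransform 0.4.2), and the rest in Python 3.11.15 with numpy, scipy and pandas. Clusters were named from marker lists. CD8 T cells had a Cd8a or Cd8b1 UMI without Cd4 or Foxp3, and conventional CD4 T cells the reverse without Foxp3. Genes were tested for 1.5-fold with at least 100 UMIs over both libraries and 5 CPM in one. The fold rule was tested on simulated counts with counting error alone and planted changes larger than 1.5-fold. Those counts hold no spread between mice, tumors or libraries, so the simulation cannot show how the rule behaves under it. Promoter sequences are from RefSeq.

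The members and lists were chosen with earlier results of these data known. From each pathway list the text names the 2 highest and 2 lowest ratios, and for each member the 3 genes with the highest correlation of log2(CPM + 1). Some genes these rules name are not reported here, nor counted in the lists.

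The planned analysis kept all cells of a class. After Ifng levels had been seen, 3 other rules for T cells with macrophage RNA were tried: leaving out whole clusters high in C1q, whole clusters whose median cell had 1% of its UMIs on macrophage markers, and the latter with single cells above 1%. One of them had replaced the planned analysis for a time. The planned analysis was restored, and the values under every rule tried are given under the effects of the processing.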

Additional observations from a re-analysis of the deposited data

Results flagged for a closer look

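Ifng moved in opposite directions in 2 classes under the same contrast: the combination was 3.10 times isotype control in T cells and 0.429 times in NK cells and ILC1. There being 1 library per group, the difference between the classes was not tested. The NK cell and ILC1 value was 0.634 in NK-like and 0.333 in ILC1-like cells, and it also moves with their mix. The T cell value was 1.74 in cells low in macrophage RNA, and 1.10 in the cluster led by Cd4 and Foxp3 that was left when clusters high in C1q genes, the Cd8a and Ifng cluster among them, were taken out. The T cell value also moves with the mix of cells, as CD8 T cells made up a larger share of T cells in the combination. In CD8 T cells alone the ratio of levels was 1.90. Their drawn-down share ratio, 1.18 (0.978 to 1.43), did not separate the shares. In conventional CD4 T cells the direction was not settled.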

How the results depend on the processing

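Ifng in T cells, 3.10 as planned, was the least stable value. The ratio was 2.48 without integration, 3.24 at resolution 1.2, 1.74 without cells at 1% or more on macrophage markers, 3.27 with median of ratios scaling and 2.79 as a mean over cells. Under settings added after the data were seen it was 1.10 without clusters high in C1q, which left the cluster led by Cd4 and Foxp3, 2.91 without the cluster whose median cell was at 1%, 2.38 without both that cluster and single cells at 1%, 1.90 in CD8 T cells and 1.76 in the other T cells. Of these, the value of 1.10 came from the rule tried first. The ratios of all T cells and of the other T cells also move with the mix of T cell types in each library. In conventional CD4 T cells, part of the other T cells, the direction was not settled. Ifng in NK cells and ILC1, 0.429, became 0.761 with no cells left out as doublets, 0.725 at resolution 1.2, 0.634 in NK-like and 0.333 in ILC1-like cells. The cause was not tested.

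Irf1 in myeloid cells, 1.83, was 1.86 without integration, 1.80 with doublets kept, 1.78 without cells carrying lymphocyte UMIs, 1.98 with median of ratios scaling and 1.70 as a mean over cells. Socs1, 3.18, was 3.48, 3.10, 3.44 and 2.99 without integration, with doublets kept, with that scaling and as a mean over cells. The count of members at least 1.5-fold higher, 2, was 3 without integration and 1 at 2-fold. The CD8 share ratio, 1.18, was 1.47 without clusters high in C1q. Other alternatives moved these values by less than their counting intervals. Median of ratios scaling moved the myeloid log2 ratios of combination to isotype control by 0.11.

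No paired analysis was possible because each group was 1 library. Leaving out a replicate was not possible for the same reason, and counting intervals leave out the spread between mice.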
